A study of Mus musculus with 4 samples.

Results

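The claudin family was examined in 4T1, a line of mouse mammary carcinoma cells, divided by display of CD44v8-10, a variant splice form of the hyaluronan receptor CD44. The family here is 10 claudin genes, Cldn1, Cldn2, Cldn3, Cldn4, Cldn6, Cldn7, Cldn8, Cldn9, Cldn12 and Cldn23, of 18193 genes that the array names. Its members are the 19 probe sets, of 45101 on the array, that the platform annotation pairs with 1 of those symbols and no other. The samples were 2 CD44v8-10-positive and 2 CD44v8-10-negative preparations of total RNA, 1 one-colour Affymetrix array each. Both groups were the same line, grown in serum-containing RPMI 1640 at normal oxygen, with cells picked by hand under a dissecting microscope. The labels name no treatment, clone or animal, and do not say that samples of a group came from separate cultures. The p-values therefore rest on how far these samples spread, and that spread may be technical.

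Claudins are membrane proteins with a pair of extracellular loops that seal or perforate the space between neighbouring epithelial cells at tight junctions. Some members chiefly seal, among them Cldn1, Cldn3 and Cldn4, while Cldn2 forms a pore for small cations and water. Occludin and tricellulin share the junctional strands, and scaffold proteins such as ZO-1 tie the strands to actin. In mammary tumours, low Cldn3, Cldn4 and Cldn7 mark the subtype named claudin-low.

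Arrays differed in brightness (trimmed mean intensities of 237 and 220 for positive arrays, 196 and 345 for negative ones), so signals were quantile normalized. Differences were taken after adding 16 and then log2, so those of dim genes are understated. With no scaling the median difference of all genes was -0.15 in place of 0.03, and values quoted with no scaling are to be read against it. Probe sets with a mean below the 40th percentile, a signal of 19.4, were left out of the tests. The positive arrays did not group together: over probe sets, positive 1 correlated at 0.981 and 0.977 with the negative arrays and at 0.967 with positive 2, which stood at 0.961 to 0.967 with every other array. The keratins Krt8 and Krt18, which mark simple epithelium, had normalized signals of 7719 to 12998 on all 4 arrays. All 7 epithelial markers lay above 0 (4 without negative replicate 1), where 54.3% of all genes did. Epcam and Krt14 were past the threshold, and with no scaling between arrays 0 of the 7 were. The summed signals of the 7 were 27424 and 29486 against 22206 and 27084. Of 8 fibroblast markers 2 were above the filter, Pdgfra (-0.94) and Col1a2 (0.04), with sums of 89.1 and 81.8 against 146.5 and 124.8. Col1a1, Col3a1 and Dcn were below the filter. Endothelial and lymphocyte lists had 1 tested gene each, Cldn5 (-0.45) and Cd8a (-0.06), and Ptprc, the pan-leukocyte marker, was below the filter. The endothelial Cdh5, also below the filter, had 50 and 18.2 against 2.88 and 7.15. As single arrays were left out, the 1 tested endothelial gene was not always Cldn5. Its value ran from -0.18 to 1.07, so the endothelial list has no settled direction. Of 8 macrophage markers 5 were tested, 4 of them apart and higher in both positive arrays (18.5% of all genes were), with summed signals of 490.5 and 599.6 against 418.7 and 389.3. Their median was 0.37, and 0.81 without positive replicate 1. Laptm5, named after its values were seen, was at -0.01 with all arrays (51.2 and 47.4 against 54 and 45.3). It ranged from -0.09 to 3.05 as single arrays were left out. These signals cannot give the upper value, so another probe set must have stood for the gene there. The part of these markers in the claudin results was not tested. In whole-population RNA, fewer cells making a transcript and less transcript per cell cannot be told apart. Cd44 as a whole differed by a log2 value of 0.11 (95% interval -0.26 to 0.48), turning to -0.06 with no scaling between arrays. The exons its probe sets read were not analysed here, so this does not check the division of the cells.

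CD44v8-10-positive cells carried more mRNA of 2 epithelial claudins, Cldn3 and Cldn7, and Cldn4 also stood higher in both positive arrays without passing the test over all genes. Cldn12, far above the filter too, overlapped between the groups, and the remaining claudins lay nearer to the filter or below it. Of the 10 genes 7 had a probe set above the filter, and 2 of these 7 were higher at an adjusted p under 0.05 and 0 lower (limma's two-sided test, Benjamini-Hochberg adjustment, 11956 genes). Over all genes tested 0.0753% were higher at that threshold and 0 lower. At an unadjusted p under 0.05, 3 of the 7 were higher and 0 lower, where 2.68% and 1.76% of all genes were. Of the 7 tested claudins 5 lay above 0, where 54.3% of all genes did, and 4 had both positive arrays above both negative arrays, where 18.5% of all genes did. The median log2 fold change of the 7 was 0.64, against 0.03 over all genes. As single arrays were left out it was 0.45 to 0.93, over the 6 or 7 claudins then above the filter, not always the same ones. These counts do not test the family, since its members were chosen with earlier results known.

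**Figure D1:**
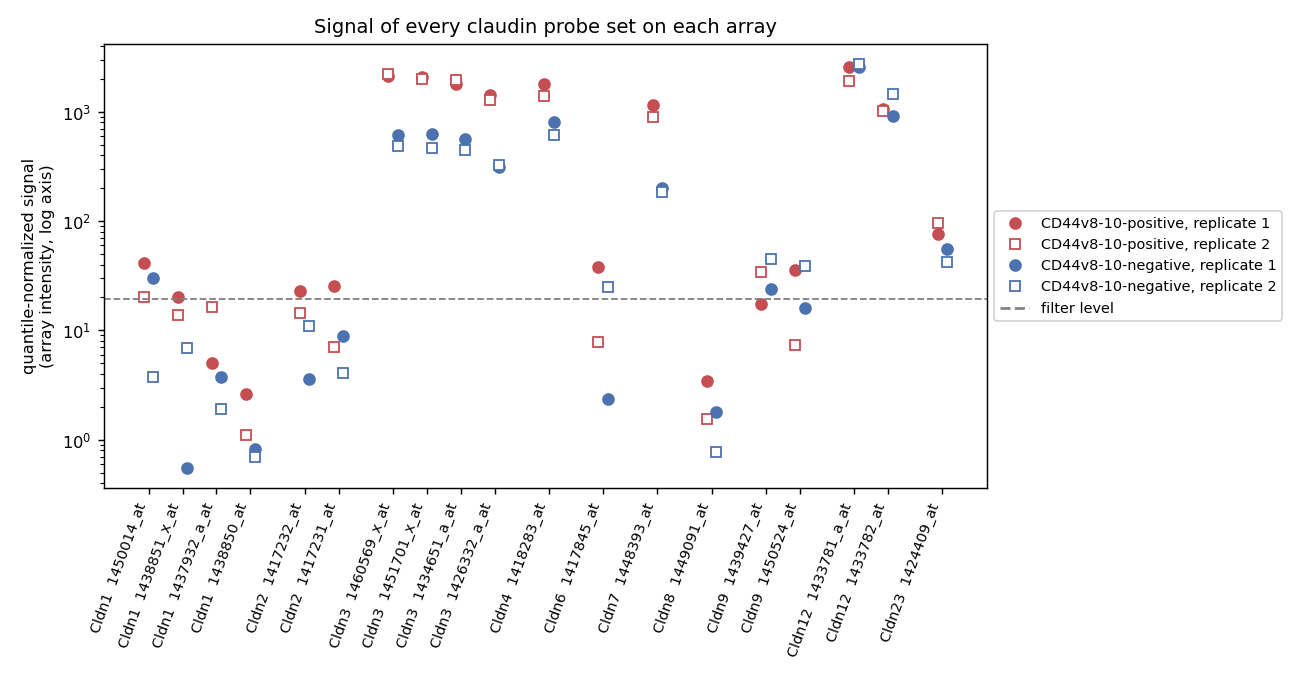
Quantile-normalized signal of all 19 claudin probe sets on a log axis, 1 point per array, red for the 2 positive and blue for the 2 negative arrays, with the filter level of 19.4 dashed. The red points of Cldn3, Cldn4 and Cldn7 lie apart above the blue ones, those of Cldn12 overlap them, and most others lie around or below the dashed line.

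Cldn7, a claudin of the lateral membrane that binds the adhesion molecule Epcam, had 1 probe set, 1448393_at. Positive arrays gave normalized signals of 1152 and 904, negative arrays 203 and 184, or 1028 ± 175.6 against 193 ± 13.0 (mean ± SD, n = 2 each). Both positive arrays were far above both negative arrays. The log2 fold change was 2.31 ± 0.22 (SE), a 4.96-fold difference, with an adjusted p of 0.000639 by limma. The deposited intensities, before the quantile normalization applied here, were 1112.5 and 786.4 against 152.3 and 269.9, so the groups were separate there too. With no scaling between arrays the fitted difference was 2.12 and did not pass (limma adjusted p 1, unadjusted p 0.000578).

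Cldn3, a sealing claudin of simple epithelia, was read by 4 probe sets, all far above the filter on every array. The brightest, 1460569_x_at, had signals of 2114 and 2221 in positive arrays against 609 and 490 in negative ones. Another, 1426332_a_at, had 1427 and 1274 against 315 and 328. In each of the 4 the groups were apart, and the positive arrays differed little from one another. The brightest probe set gave a log2 fold change of 1.96 ± 0.20 (SE), a 3.88-fold difference, with an adjusted p of 0.000851 by limma over all genes. With no scaling it was 1.76 and did not pass (limma adjusted p 1), and without the intensity trend neither Cldn3 (0.136) nor Cldn7 (0.076) passed. Tested singly over 27022 probe sets, the 4 gave 1.86 to 2.02 with adjusted p-values by limma of 0.00838 to 0.0139. With Cldn7, 5 of the 12 claudin probe sets above the filter passed so, where 0.0333% of all probe sets did, and 7 of the 12 had the positive arrays apart and higher, where 16.5% of all did. They read 1 transcript and are no replicates of each other. Identifiers ending in _x_at can also bind related transcripts, and 2 of the 4 are of that kind, but the other 2, 1434651_a_at and 1426332_a_at, gave 1.86 and 2.02.

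Cldn4, another sealing claudin and with Cldn3 a receptor for the enterotoxin of Clostridium perfringens, had 1 probe set, 1418283_at. Positive arrays gave 1792 and 1400, negative arrays 798 and 612. The groups did not overlap, but the spread within each was wider than for Cldn3. The log2 fold change was 1.16 ± 0.22 (SE; 95% interval 0.69 to 1.63), or 2.24-fold, with an adjusted p of 0.152 by limma. Of the 11956 genes it ranked 11 by p-value, behind the 9 that passed. Leaving out 1 array at a time gave 0.97 to 1.35, and none of these 4 fits passed.

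**Figure D2:**
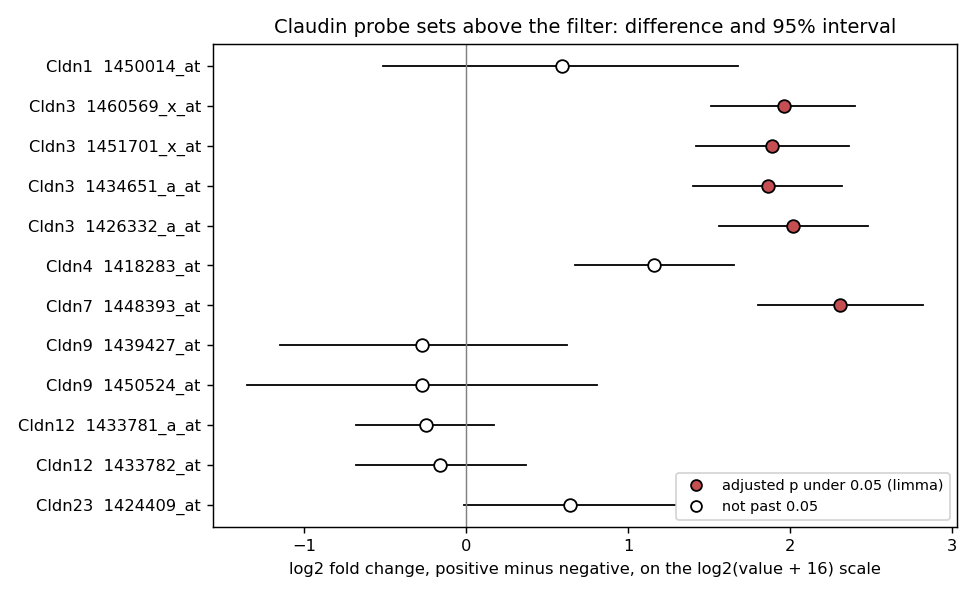
Log2 fold change (point) and 95% interval (line) of the 12 claudin probe sets above the filter, each fitted singly over 27022 probe sets. The 5 filled points, of Cldn3 and Cldn7, passed an adjusted p of 0.05, and the interval of Cldn4 lies above 0 without passing.

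The claudins were also set against each other within each array, which shows unequal change and not which of a pair changed. Cldn12 was taken as the reference after its values were seen, because its groups overlapped, so the shifts against it restate the fold changes above and are no further evidence. The log2 difference of Cldn7 from Cldn12 was -1.16 and -1.06 in positive arrays against -3.56 and -3.77 in negative ones, a shift of 2.56. For Cldn3 the shift against Cldn12 was 2.21 and for Cldn4 it was 1.41. Among the 3 genes themselves, Cldn7 shifted from Cldn4 by 1.15 and Cldn3 from Cldn4 by 0.79, without overlap. The shift of Cldn7 from Cldn3 was 0.35, with a narrow gap between the closest arrays (-1.28 and -1.34). Each of these 3 comparisons, of 6 computed, had an exact permutation p of 0.333 (two-sided), the smallest that 2 arrays against 2 can give.

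The sequences upstream of these 3 genes are shown because repressors of the ZEB and SNAI families, which bind E-boxes, are known to silence epithelial genes, and because Cldn3 and Cldn4 are neighbours in the genome. RefSeq windows (GRCm38.p6) were found for 7 of the 10 genes, 10 windows in all, some with several start sites. Each sequence below is the 250 bases before a start site, 5′ to 3′ on the gene's strand, and capitals mark CACCTG (or CAGGTG, its other strand) and GGGCGG (or CCGCCC), the GC box of the SP and KLF factors.
Cldn3, chr5:134985964-134986213, plus strand: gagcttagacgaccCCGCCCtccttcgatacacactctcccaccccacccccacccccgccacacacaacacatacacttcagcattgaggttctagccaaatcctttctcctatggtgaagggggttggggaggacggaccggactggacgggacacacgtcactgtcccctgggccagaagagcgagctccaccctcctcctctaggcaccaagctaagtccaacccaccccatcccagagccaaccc
Cldn4, chr5:134946935-134947184, minus strand: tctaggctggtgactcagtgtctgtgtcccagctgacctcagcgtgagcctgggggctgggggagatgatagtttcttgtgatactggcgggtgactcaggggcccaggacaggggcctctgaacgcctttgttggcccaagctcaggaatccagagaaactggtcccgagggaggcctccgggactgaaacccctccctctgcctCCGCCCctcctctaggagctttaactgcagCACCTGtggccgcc
Cldn7, first start site, chr11:69964529-69964778, plus strand: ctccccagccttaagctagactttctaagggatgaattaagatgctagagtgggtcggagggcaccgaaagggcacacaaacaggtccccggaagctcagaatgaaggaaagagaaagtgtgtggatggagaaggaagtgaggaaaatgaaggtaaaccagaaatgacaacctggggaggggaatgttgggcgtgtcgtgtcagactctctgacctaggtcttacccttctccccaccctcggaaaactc
Cldn7 has another start site downstream, whose window holds CACCTG at 2 places, each shown with 10 bases on either side.
Cldn7, upstream of the other start site, chr11:69965314-69965339, plus strand: tcttcctcttCACCTGgacgaggagg
Cldn7, upstream of the other start site, chr11:69965354-69965379, plus strand: acttccggttCAGGTGagtgtccctt
In Cldn4 the CACCTG began 14 bases before the start site and a GC box 44 bases before it. The Cldn3 window held a GC box and no CACCTG, and the window of the first Cldn7 start site neither. CACCTG on either strand was in 3 of the 10 claudin windows, against 17.2% of 32851 windows of that length over all genes, and GGGCGG in 7 of 10, against 32.7%. The grainyhead motif AACCGGTT was in 0 of the 10 and in 0.116% of all windows. These are letter matches in a short window, some windows of Cldn12 overlap, and neither binding nor its absence was measured.

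Of the other claudins above the filter, none passed. Cldn12, a claudin that lacks the usual PDZ-binding tail and has been linked to calcium permeability, gave 2587 and 1899 in positive arrays against 2560 and 2724 in negative ones for 1433781_a_at. Its second probe set, 1433782_at, had 1052 and 1014 against 922 and 1440. The positive and negative ranges crossed in both. The log2 fold changes were -0.25 (95% interval -0.66 to 0.16, limma adjusted p 0.985) in the gene fit and -0.16 (-0.68 to 0.37) for the second probe set. The first interval leaves out a rise of the size seen for Cldn4, and the second does as well.

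Cldn23, a little-studied epithelial claudin, gave 75.7 and 95.1 in positive arrays against 56.1 and 42.1 in negative ones, which did not overlap. Its log2 fold change was 0.64 ± 0.30 (SE; 95% interval -0.01 to 1.30), with an unadjusted p of 0.0545 and an adjusted p of 0.985 by limma. The signal was low in all 4 arrays, and the difference ranged from 0.45 to 0.81 as single arrays were left out.

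Cldn1, the main sealing claudin of the epidermis, was close to the filter. Its brightest probe set, 1450014_at, gave 41.2 and 20.0 in positive arrays against 30.2 and 3.78 in negative ones. The groups overlapped, and the difference of 0.59 (log2; limma adjusted p 0.985; 95% interval -0.49 to 1.66) turned to -0.03 without negative replicate 2. The other 3 probe sets of Cldn1 were below the filter, and their signals ran from 1.10 to 20.3 in the positive and 0.55 to 6.90 in the negative arrays. Each of these 3 had both positive arrays above both negative ones, as 16.8% of all probe sets did with no filter. At such levels the size of a difference cannot be read, and with no filter none of them passed (limma adjusted p 0.939 to 0.957).

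Cldn9, a claudin known from the inner ear, lay near the filter too. Its probe sets had signals of 17.4 and 34.0 against 23.7 and 45.0 (1439427_at), and of 35.7 and 7.28 against 16 and 38.7 (1450524_at). Replicates differed as much as groups, and both log2 fold changes were -0.27. The direction of the first turned without positive replicate 1 (0.03), and without negative replicate 2 (0.04), and that of the second without positive replicate 2 (0.31), so neither has a settled sign.

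Cldn2, Cldn6 and Cldn8 had no probe set above the filter and were not tested in the gene fit. The pore-forming Cldn2 gave 22.7 and 14.5 in positive arrays against 3.58 and 11 in negative ones for 1417232_at, and of 25.3 and 7.00 against 8.82 and 4.10 for 1417231_at. Cldn6, a claudin of embryonic epithelia whose gene lies next to Cldn9, had 37.7 and 7.80 against 2.38 and 25.0. Cldn8, which is known from the distal nephron, had 3.42 and 1.55 against 1.80 and 0.775. Of these 4 probe sets only the first of Cldn2 had separate groups, and it lay around or below the filter level. With no filter, limma called 0 of the 19 claudin probe sets and 0 of all 45037, while 7 claudin probe sets were higher and 0 lower at an unadjusted p under 0.05. Of all 45037, 2.16% were higher and 2.52% lower at that level.

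**Figure D3:**
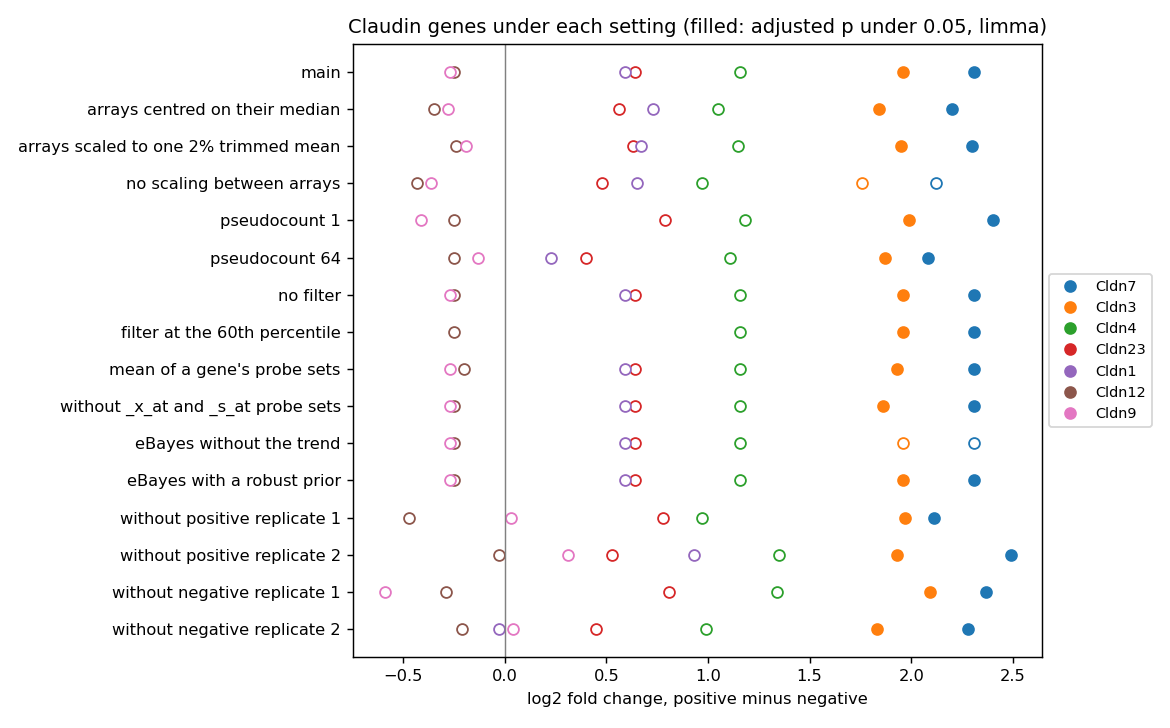
Log2 fold change of the 7 tested claudin genes as analysed (top, labelled main) and under 15 other settings, filled where the adjusted p by limma was under 0.05. Cldn7 stays between 2.08 and 2.49 and Cldn3 between 1.76 and 2.09; both are open circles where arrays were not scaled and where eBayes had no trend, and Cldn9 and Cldn1 cross 0.

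The genes beside the claudins were read for whether the difference extended along the chromosome. Cldn3 and Cldn4 are adjacent on chromosome 5, with Mettl27 and Cldn13 on one side and Abhd11 and Stx1a on the other. Abhd11, a mitochondrial hydrolase, gave 725 and 836 in positive arrays against 602 and 648 in negative ones. Its log2 fold change was 0.31 (95% interval -0.13 to 0.76), and that of the syntaxin gene Stx1a was 0.23 (-0.25 to 0.72). Mettl27 and Cldn13 were below the filter. Around Cldn7 on chromosome 11, the glucose transporter gene Slc2a4 had 81.3 and 79.5 against 41.8 and 40.6. Its log2 fold change of 0.75 ± 0.30 (SE; 95% interval 0.10 to 1.40) did not pass (limma unadjusted p 0.0268, adjusted p 0.985). On the far side Elp5, an Elongator subunit, had 0.15 (-0.27 to 0.57), turning to -0.06 with no scaling, and the phosphatase gene Ctdnep1 had 0.31 (-0.19 to 0.80). Over the neighbours of all 10 claudins, 19 of 32 genes were tested and 0 passed. Of the 19, 13 lay above 0, where 54.3% of all genes did, and 8 with no scaling. The median was 0.11 (-0.06 with no scaling, where that of all genes was -0.15). At an unadjusted p under 0.05 by limma 1 was higher and 2 lower, where 2.68% and 1.76% of all genes were.

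**Figure D4:**
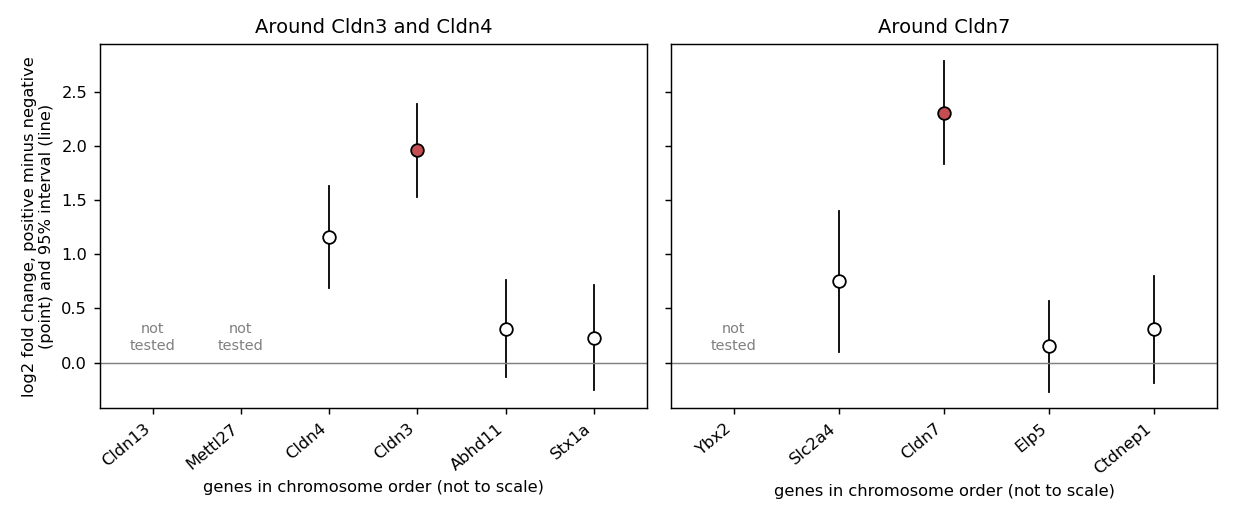
Log2 fold change (point) and 95% interval (line) of Cldn3, Cldn4 and Cldn7 and of the protein-coding genes next to them in chromosome order, not to scale. The filled points, Cldn3 and Cldn7, passed an adjusted p of 0.05, and the intervals of Abhd11, Stx1a, Elp5 and Ctdnep1 include 0, while that of Slc2a4 (0.10 to 1.40) does not.

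The rest of the claudin family and the tight junction were read from lists. Over all genes 54.3% lay above 0, and at an unadjusted p under 0.05 by limma 2.68% were higher and 1.76% lower. The counts of each list below are to be read against these shares. Of 17 further claudin and claudin-domain genes 6 were tested and 0 lay above 0, with a median of -0.21 and 0 past the threshold; under median centring or a common trimmed mean 1 lay above 0. Without positive replicate 2 it was 3 of 5, with a median of 0.08, and without negative replicate 1 it was 2 of 4, with -0.08, so the list has no settled direction. The claudin-domain gene Cldnd1 was the one well above the filter, with values of 645 and 672 against 729 and 758 and a log2 fold change of -0.17 (95% interval -0.61 to 0.26). Cldn22 followed at -0.17 and turned to 0.06 as single arrays were left out. The other 4 tested genes, among them the endothelial Cldn5 at -0.45 (0.25 without positive replicate 2; named outside the rule, after its values were seen), had mean signals of 19.7 to 38.4 in each group. No gene of this list was higher or lower by limma at an unadjusted p under 0.05.

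Membrane proteins that share the junction with claudins did not pass. Of 11 such genes 9 were tested, 6 above 0 (3 with no scaling), with a median of 0.07 (-0.05). Occludin, Ocln, named outside the rule after its values were seen, gave 499 and 577 in positive arrays against 475 and 586 in negative ones, which overlapped, and a log2 fold change of 0.02 (95% interval -0.45 to 0.50). The junctional adhesion molecule F11r had 0.07 (-0.35 to 0.48) and the coxsackievirus receptor Cxadr -0.19 (-0.60 to 0.23); Ocln and F11r turned below 0 with no scaling. Named after their values were seen, Marveld3, a relative of occludin, had 112 and 222 against 69.7 and 80.9, and the apical polarity protein Crb3 97.0 and 177 against 76.8 and 62.7. Both had separate groups and were the 2 of the 9 at an unadjusted p under 0.05. Marveld3 differed by 0.93 (log2; limma unadjusted p 0.0108, adjusted p 0.980), and by 0.50 without positive replicate 2 and 1.38 without positive replicate 1. Crb3 differed by 0.79 (limma unadjusted p 0.0236, adjusted p 0.985), and by 0.42 and 1.17 without the same arrays.

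Of 17 scaffold genes 15 were tested, 9 above 0, with a median of 0.07 and 0 past the threshold or at an unadjusted p under 0.05 by limma. The junctional Y-box factor Ybx3 had a log2 fold change of 0.01 (-0.32 to 0.35; -0.03 with no scaling) and Tjp1, which encodes ZO-1, -0.17 (-0.59 to 0.26), with signals of 1536 and 1421 against 1450 and 1898. With no scaling between arrays the count above 0 was 4 of 15, with a median of -0.12 where that of all genes was -0.15. The list's median was -0.14 without negative replicate 1 and 0.21 without negative replicate 2, so it has no settled direction. Kinases and GTPases of junction signalling had a median of 0.02 over 9 tested genes (-0.11 with no scaling), with 0 past the threshold or at an unadjusted p under 0.05. Rhoa was at -0.02 and Wnk1 at -0.16, and Rhoa turned above 0 with arrays scaled to a common trimmed mean (0.08).

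Among genes whose products bind or process claudin partners, Epcam passed. Epcam, which holds Cldn7 at the membrane, gave 2309 and 2479 in positive arrays against 940 and 930 in negative ones. Its log2 fold change was 1.34 ± 0.18 (SE), 2.53-fold, with an adjusted p of 0.0118 by limma. It was not called with no scaling (limma adjusted p 1), nor without positive replicate 1 (0.0842) or positive replicate 2 (0.258). All 5 tested genes of this list lay above 0, with a median of 0.33; without negative replicate 1 it was 4 of 6, with 0.22. The Epcam-cleaving protease matriptase, St14, named after its values were seen, had 845 and 1149 against 581 and 809 and a difference of 0.51 (log2; limma unadjusted p 0.0485, adjusted p 0.985), which was 0.28 to 0.75 as single arrays were left out.

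Transcription factors known to act on epithelial genes did not pass in either direction. Of 16 activators 12 were tested, 9 above 0 (7 with no scaling), with a median of 0.17 (0.04 with no scaling, and 0.11 to 0.34 as single arrays were left out). Klf5, a zinc-finger activator, was at -0.26 (-0.71 to 0.19), and Grhl2, a grainyhead factor of epithelial junction genes, at 0.07 (-0.43 to 0.58), turning to -0.14 with no scaling. Ovol1, named after its values were seen, had separate signals of 88.2 and 107 against 37.5 and 51.9 and differed by 0.91 (log2; limma unadjusted p 0.00995, adjusted p 0.980). Of 10 repressors 7 were tested, 4 above 0 (2 with no scaling), with a median of 0.03 (-0.20), and -0.09 to 0.23 as single arrays were left out. Tcf4 was at -0.42 (-0.93 to 0.10) and Tcf3 at 0.19 (-0.34 to 0.71; -0.02 with no scaling). The E-box repressor Zeb2, also named after its values were seen, gave 118 and 122 in positive arrays against 190 and 218 in negative ones, without overlap. Its log2 fold change was -0.69 ± 0.24 (SE) and did not pass (limma unadjusted p 0.0123, adjusted p 0.982). Leaving out single arrays gave -0.59 to -0.72, except without negative replicate 1, where another probe set stood for the gene and gave -1.42. Its relative Zeb1 and Snai1, also named after their values were seen, went the other way without overlap. Zeb1 had 36.8 and 33.2 against 9.73 and 26.2, a log2 fold change of 0.63. Its lower negative array was under the filter level of 19.4, where the size of a difference cannot be read. Snai1 had 108 and 153 against 85.7 and 103, a log2 fold change of 0.40, and neither Zeb1 nor Snai1 passed (limma adjusted p 0.985).

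**Figure D5:**
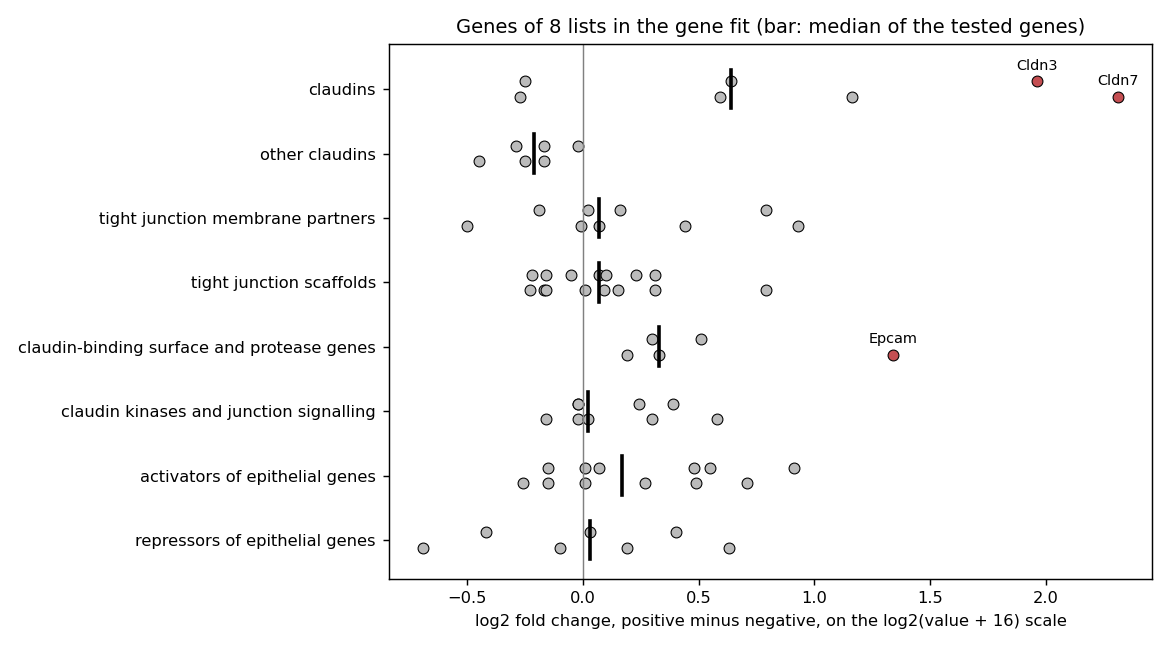
Log2 fold changes of the tested genes of 8 lists, 1 point per gene, with a bar at each list's median and the genes that passed filled and named. Cldn3, Cldn7 and Epcam are the filled points, and the median of the claudins is 0.64. That of the further claudins is -0.21 here and 0.08 without positive replicate 2.

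The genes whose log2 values ran most like those of the 3 claudins over the 4 arrays were found by Euclidean distance after centring each gene on its mean. Nearest to Cldn3 were the basal keratin Krt14 (distance 0.20), the laminin chain Lama3 (0.30), the glycosidase Engase (0.34) and the cytokine Il1f10 (0.46). Nearest to Cldn4 were Arhgef3 (0.19), the transcription factor Cebpa (0.25), the small GTPase Rab32 (0.28) and Moxd1 (0.30). Nearest to Cldn7 were Cldn3 itself (0.48), the serpin Serpinb5 (0.51), Krt14 (0.62) and the clathrin adaptor subunit Ap1m2 (0.65). Moxd1, a dopamine hydroxylase relative, gave 1443 and 1515 in positive arrays against 782 and 580 in negative ones and, like Cldn4, did not pass (limma adjusted p 0.152). Engase (8.83 and 3.77), Il1f10 (12 and 7.8) and Ap1m2 (13.9 and 8.57) had negative-array signals under the filter level of 19.4. Cebpa had 20 and 6.67 in the negative arrays. At such levels the size of a difference cannot be read, so the distances of these genes are uncertain. The other genes named here lay above the filter level on all arrays. All these distances describe 4 arrays, and with so few, genes of similar fold change lie close together.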

How the data were processed

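The authors deposited 1 linear intensity per probe set and array; the submitters' processing notes name GCOS, without a role. How probes were summarised and arrays scaled is not given in the sources used here. Groups and replicate numbers came from the sample titles. Intensities were quantile normalized, because the arrays' 2% trimmed means differed, and transformed as log2(value + 16). After 64 control probe sets were removed, those under the 40th percentile of the mean were left out (27022 remained). The brightest probe set stood for a gene (11956 genes), and probe sets were also fitted singly. Groups were compared with limma 3.58.1 in R 4.3.3 (lmFit, then eBayes with an intensity trend, two-sided p-values, Benjamini-Hochberg adjustment across all features, threshold 0.05). On simulated data with 200 changed genes among 11956, the gene fit recovered 65.8% of changes of log2 1 and 99.6% of changes of log2 2, with 6.99% false calls. The data themselves gave 9 calls, so these shares need not hold for them. The 2 arrays per group limit the precision. Promoter windows and gene order came from RefSeq tables for GRCm38.p6.

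The family, lists, tests and alternatives were chosen with earlier results of these data known. Named genes were all 10 claudins; each list's passing members, or its 2 brightest where none passed (others are marked in the text); tested neighbours of Cldn3, Cldn4 and Cldn7; and the 4 genes nearest to each of these. Alternatives were 3 other scalings, pseudocounts of 1 and 64, filtering at the 60th percentile or not at all, averaged probe sets per gene, _x_at and _s_at probe sets left out, eBayes lacking the trend, a robust prior, a replicate block, and each array left out.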

Additional observations from a re-analysis of the deposited data

How the results depend on the processing

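Cldn7 and Cldn3 were called in 14 of 16 other settings of the gene fit, with log2 fold changes of 2.08 to 2.49 and 1.76 to 2.09. Where arrays were not scaled, and where eBayes had no trend, 0 claudin genes were called by limma (2 and 4 higher at an unadjusted p under 0.05) and 0 claudin probe sets (5 and 7). With no filter Cldn3 and Cldn7 lay just under the threshold in the gene fit (limma adjusted p 0.0499 for each), and 0 claudin probe sets passed. Without the _x_at and _s_at probe sets 3 claudin probe sets passed, since 2 of Cldn3 were removed. Leaving out 1 array gave 2 called claudin genes each time and 0 to 5 called claudin probe sets: 0 without positive replicate 1 or positive replicate 2, with 7 and 6 higher at an unadjusted p under 0.05. No claudin was called lower in any setting. As single arrays were left out, the Cldn9 value ranged from -0.59 to 0.31 (its second probe set from -0.68), Cldn1 from -0.03 to 0.93 and the second Cldn12 probe set from -0.47 to 0.17. The Cldn9 probe set 1439427_at turned without positive replicate 1 (0.03) and negative replicate 2 (0.04). Without positive replicate 2 it was -0.58, but the other Cldn9 probe set stood for the gene there, at 0.31. Cldn1 and the second Cldn12 probe set turned without negative replicate 2, and the Cldn12 gene value did not turn. Over all genes 9 passed, against 25 with median centring, 3 with no scaling, 3 with no filter, 2 with no trend and 16 without positive replicate 1. Over all probe sets 9 passed, against 17, 4, 0, 2 and 15 in the same order, and 1 without positive replicate 2. The causes were not tested.

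Arrays share replicate numbers, but deviations from the group means of same-numbered arrays correlated at only 0.093, so the numbers were not taken as pairs. With the replicate block 3 claudin genes were called, Cldn4 (limma adjusted p 0.0110) added, among 18 genes in place of 9, and 6 claudin probe sets. The dim claudins lay near the filter level, where these arrays limit what can be measured.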
